A study of Mus musculus with 6 samples.

Results

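The genes of the integrin receptors and of the laminins were compared between cells of mice lacking the microRNA miR-188 (KO188) and cells of wild-type mice (WT). Members were taken by gene symbol: every integrin alpha gene, every integrin beta gene and every laminin alpha, beta or gamma chain gene that the array annotation pairs with a probe set of its own. This gave 36 genes of 19938 tested, of which 26 encode integrin subunits (18 alpha and 8 beta) and 10 encode laminin chains.

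The cells were bone marrow stromal cells, the adherent marrow cells that can form bone or fat, from C57BL/6 mice 6 months old, with 3 arrays of WT and 3 of KO188. Both groups were kept in the same osteogenic medium, alpha-MEM with 10% fetal calf serum, 100 nM dexamethasone, 10 mM beta-glycerophosphate and 0.05 mM ascorbic acid 2-phosphate. Total RNA of each sample was read on 1 Affymetrix array. The labels say biological replicate but not whether each came from its own animal, so the p-values measure only the spread between these samples. They name no culture day or batch, and genotype and any culture difference shared by the KO188 arrays cannot be told apart. The probe set of Mir188, the targeted gene, read 7.15, 7.13 and 7.16 in WT and 7.03, 7.13 and 7.09 in KO188, so the groups overlapped and it was not called (-0.06, limma adjusted p = 0.24). Neither labels nor annotation say whether its probes lie in the deleted stretch, so it does not check the genotype, which is taken from the labels throughout. All values below are log2 levels of a probe set; since every gene is read by its own probes, levels are not compared between genes. Cultures are mixtures, so fewer cells of a type and less RNA per cell cannot be told apart in any result below.

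Integrins are the main receptors by which cells hold on to the matrix around them. Each is a pair of an alpha and a beta subunit, and the pair decides the ligand: alpha1, alpha2, alpha10 and alpha11 with beta1 bind collagens, alpha3, alpha6 and alpha7 bind laminins, and alpha5, alpha8 and alphaV with several beta subunits bind ligands with the tripeptide Arg-Gly-Asp (RGD), such as fibronectin and vitronectin. The beta2 and beta7 integrins are those of leukocytes. Laminins are trimers of an alpha, a beta and a gamma chain that form the base of basement membranes. In osteogenic stromal cells collagen-binding integrins hold the cell to the type I collagen it secretes, and alpha5beta1 holds it to fibronectin. The microRNA that the knockout mice lack has a pair of mature strands, shown here to identify it, with bases 2 to 8 (the seed) in capitals, from RefSeq (GRCm38.p6), at chrX:7248031-7248051 for the 5p and chrX:7247992-7248012 for the 3p strand, both on the minus strand:
mmu-miR-188-5p: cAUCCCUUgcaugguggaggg
mmu-miR-188-3p: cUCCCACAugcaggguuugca
Sites of these seeds in the integrin and laminin transcripts were not analysed here.

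Collagen receptor genes were higher in KO188 where they were called, laminin receptor genes were lower, and the RGD and laminin chain genes went both ways. A gene is called where limma's adjusted p over all tested genes is under 0.05. Of the 36 members 6 were called higher and 11 lower, and 19 were not called. The 17 calls are 47.2% of the members, against 29.8% of all tested genes (13.3% higher and 16.5% lower in KO188). Both shares were higher among brighter genes. A rough guide to unexpressed genes, chosen with the data known, is the 95th percentile of the 1194 receptor genes of smell and pheromone sensing (6.72), and it was exceeded by 29 members, of which 58.6% were called, against 41.1% of the 13880 tested genes above it. The 7 members at or under the guide were Itga2, Itga4, Itgae, Itgam, Itgax, Itgb2 and Lama2, and 0 of them was called (2 had an unadjusted limma p under 0.05, Itgam and Lama2). The median change of the members was -0.04, against -0.01 over all tested genes, and the called members went both ways. With each array centred on its own median, 5 members were higher and 14 lower, against 10.1% and 22.6% of all tested genes. Over all genes 44.5% of the calls were higher in KO188, and 30.8% with that centring.

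**Figure D1:**
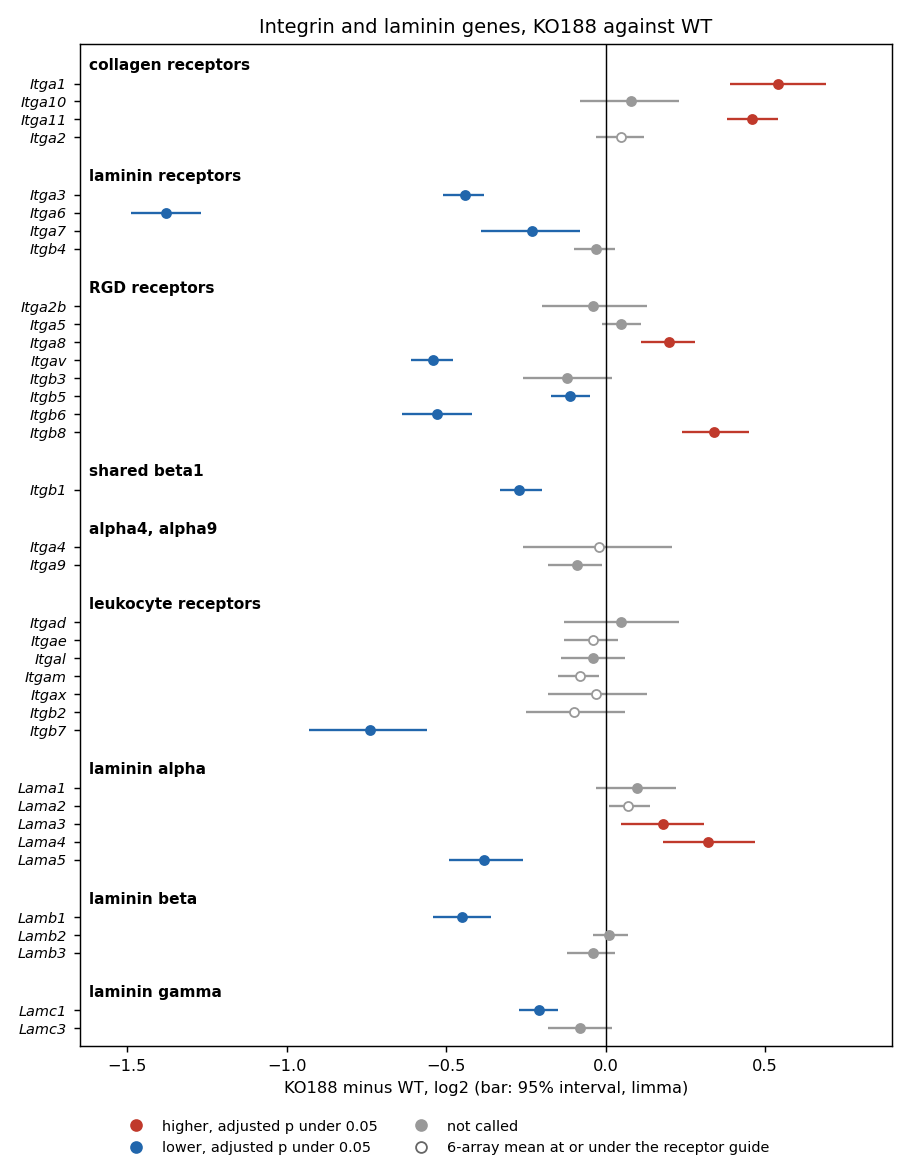
Change of each of the 36 genes (KO188 minus WT, log2, x axis) with its unadjusted 95% interval from limma, ordered by receptor class and laminin chain; colour gives the call and open points have 6-array means at or under the receptor guide of 6.72. Itga6 stands farthest to the left at -1.38, and Itga1 farthest to the right at 0.54.

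Among the receptors for collagen, 2 of 4 genes were called, both higher. Itga11 encodes alpha11, a receptor for fibrillar collagens made mainly by mesenchymal cells. Its level was 10.17, 10.14 and 10.22 in the WT arrays and 10.68, 10.60 and 10.64 in the KO188 arrays. The groups lay apart by far more than the spread within either, and the change was 0.46 (SE 0.035, limma adjusted p = 1.4e-04), or 1.38-fold. Itga1 encodes alpha1, whose preferred ligands include the network collagen of basement membranes. It read 8.02, 7.97 and 7.92 in WT and 8.61, 8.55 and 8.38 in KO188, a rise of 0.54 (SE 0.063, adjusted p = 9.5e-04). KO188 replicate 3 was the lowest of its group for Itga1 and still lay above every WT array.

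The other collagen receptor genes were not called, and their groups overlapped. Itga10, the gene of a collagen receptor known from cartilage, was 7.29 ± 0.09 (SD, n = 3) in WT and 7.36 ± 0.09 in KO188, with an interval of the change from -0.08 to 0.23. Itga2, the alpha2 gene and the chromosomal neighbour of Itga1 among protein-coding genes, was 6.50 ± 0.02 and 6.55 ± 0.05, under the receptor guide in both groups. The median change of the 4 collagen receptor genes was 0.27, against -0.01 over all tested genes.

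The receptors for laminin went the other way, with 3 of 4 genes called and all 3 lower. Itga6, which encodes the alpha6 subunit of laminin receptors with beta1 or beta4, read 10.24, 10.33 and 10.41 in WT and 8.99, 8.93 and 8.93 in KO188. The KO188 arrays lay close together and far below every WT array. The fall was 1.38 on the log2 scale (SE 0.047, limma adjusted p = 4.4e-06), so that the WT level was 2.60-fold that of KO188. Of all 19938 tested genes 7 had a lower change. Itga3, the gene of alpha3, a receptor for laminins with alpha3 or alpha5 chains, fell from 11.08, 11.11 and 11.13 to 10.69, 10.65 and 10.66, a change of -0.44 (SE 0.027, adjusted p = 5.8e-05). The SD of Itga3 was 0.03 in WT and 0.02 in KO188 (n = 3 each), and its groups did not overlap.

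Itga7, whose product is the main laminin receptor of muscle, read 7.43, 7.41 and 7.65 in WT and 7.23, 7.29 and 7.28 in KO188. WT replicate 3 stood above the other WT arrays, and the change was -0.23 (SE 0.064, limma adjusted p = 0.036). The call, though not the change, ended without any 1 of the 3 KO188 arrays, without WT replicate 1 or when all probe sets entered the fit separately (-0.26 to -0.21, adjusted p = 0.054 to 0.11). Itgb4, the gene of the beta4 partner of alpha6 in epithelial hemidesmosomes, was 7.45 ± 0.03 (SD, n = 3) in WT and 7.42 ± 0.02 in KO188 and was not called (interval of the change -0.10 to 0.03). Itgb1, the beta subunit that the collagen receptors, most laminin receptors and alpha5 share, was 12.66, 12.63 and 12.68 in WT and 12.39, 12.42 and 12.37 in KO188. Its groups did not overlap, and it fell by 0.27 (SE 0.027, adjusted p = 5.4e-04), while its collagen-binding partners Itga1 and Itga11 were higher.

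Within each array, the level of Itga11 minus that of Itga6 changed by 1.84 between the groups, and that of Itga6 minus Itga3 changed by -0.93. These and 6 further pairs, chosen with the changes known, were each set against an exact permutation of the arrays (two-sided, 20 assignments). All 8 gave an exact p = 0.10 (0.10 after Benjamini-Hochberg adjustment over the 8), the smallest that this permutation of 3 against 3 arrays can give, so it could not pass 0.05.

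**Figure D2:**
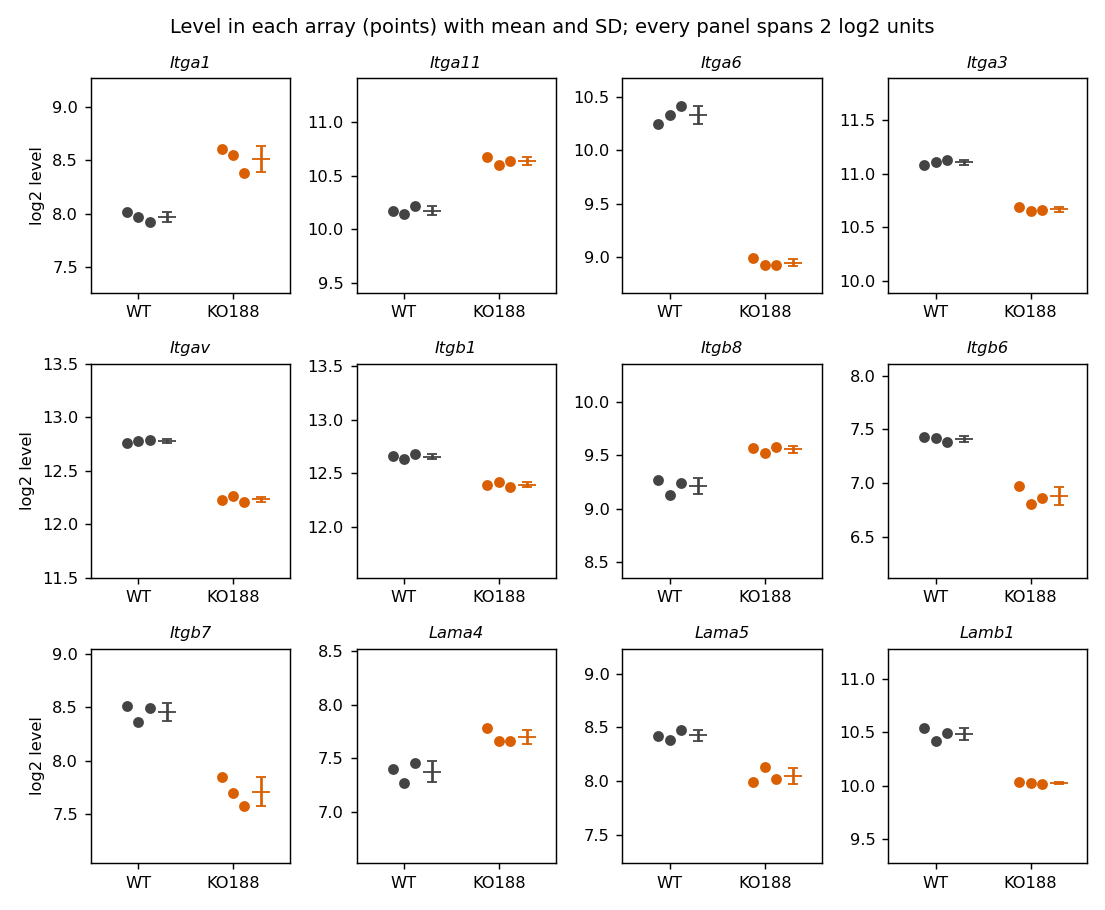
Level (log2, y axis) of 12 called members in each of the 3 WT and 3 KO188 arrays, with the mean and SD of the group beside the points; every panel spans the same range, so distances compare between panels. The groups of all 17 called members were apart, so separate points in all 12 panels follow from the choice of genes. The widest gap is that of Itga6.

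The RGD receptors split: of 8 genes 2 were higher, 3 lower and 3 not called, with a median change of -0.08. Itgav encodes alphaV, the vitronectin receptor subunit that pairs with beta1, beta3, beta5, beta6 or beta8. It read 12.76, 12.78 and 12.79 in WT and 12.23, 12.26 and 12.21 in KO188. This tight separation gave a fall of 0.54 (SE 0.027, limma adjusted p = 2.3e-05), with WT at 1.46-fold the KO188 level. Itga5, the alpha subunit gene of the fibronectin receptor, was 12.44 ± 0.01 (SD, n = 3) in WT and 12.49 ± 0.02 in KO188 and was not called (interval of the change -0.01 to 0.11, adjusted p = 0.20). It was called higher under 2 of 15 alternatives, quantile normalization (adjusted p = 0.031) and eBayes with trend (0.047).

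Among the beta partners of alphaV, Itgb6 and Itgb8 moved in opposite directions. Both alphaVbeta6 and alphaVbeta8 are known for releasing active TGF-beta from its latent complex, the former on epithelia. Itgb8 read 9.27, 9.13 and 9.24 in WT and 9.57, 9.52 and 9.58 in KO188, a rise of 0.34 (SE 0.043, adjusted p = 0.0014). Itgb6 read 7.43, 7.42 and 7.38 in WT and 6.97, 6.80 and 6.86 in KO188, a fall of 0.53 (SE 0.047, adjusted p = 2.9e-04). Its KO188 arrays lay close to the receptor guide of 6.72, where array values are compressed. Itgb5, the gene of a vitronectin receptor subunit, fell by 0.11 from 12.25 ± 0.01 to 12.13 ± 0.02 (SD, n = 3; adjusted p = 0.015), a call that ended with quantile normalization (-0.06, adjusted p = 0.15) and without WT replicate 1 (adjusted p = 0.054).

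Itgb3, the beta3 gene of osteoclasts and platelets, was 8.43 ± 0.10 in WT and 8.31 ± 0.07 in KO188, with overlapping groups and no call. Itga2b, its platelet partner, was 7.72 ± 0.07 and 7.68 ± 0.13 and was not called either. Itga8, the gene of alpha8, a receptor of mesenchymal cells for nephronectin, read 6.64, 6.75 and 6.69 in WT and 6.88, 6.89 and 6.89 in KO188. The groups were apart, with a rise of 0.20 (SE 0.035, adjusted p = 0.0059), but the WT mean of 6.69 lay under the receptor guide, so its size is inexact. Of the alpha4 and alpha9 genes, whose integrins bind VCAM-1 and tenascin among other ligands, Itga4 was under the guide (6.44 ± 0.16 in WT, 6.42 ± 0.14 in KO188) and Itga9 was 7.08 ± 0.03 and 6.99 ± 0.05 (adjusted p = 0.099). Itga9 was called lower with median centring (adjusted p = 0.017), with quantile normalization (0.015) and without KO188 replicate 2 (0.038).

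The leukocyte integrin genes gave 1 call of 7, Itgb7. Itgb7 encodes beta7, the partner of alpha4 and alphaE on lymphocytes that home to the gut. Its level was 8.51, 8.36 and 8.49 in WT and 7.85, 7.70 and 7.58 in KO188. Every KO188 array lay below every WT array, and the fall was 0.74 (SE 0.077, limma adjusted p = 5.8e-04), or 1.67-fold. Both of its partner genes were under the receptor guide in each group, Itga4 as given above and Itgae at 6.58 ± 0.03 (SD, n = 3) in WT and 6.53 ± 0.05 in KO188. The beta2 family, which serves adhesion and phagocytosis of leukocytes, had 0 calls among its 5 genes (1 with an unadjusted limma p under 0.05): Itgb2 (6.77 and 6.67), Itgam (6.32 and 6.24) and Itgax (6.53 and 6.50) were under the guide as 6-array means, Itgal was at 6.99 and 6.94, and Itgad at 8.10 and 8.15. Itgam had an unadjusted limma p of 0.022 and was called lower with median centring and quantile normalization (adjusted p = 0.014 and 0.016). Itgb2 was called lower without KO188 replicate 2 (0.031). A second probe set of Itgad changed by -0.10 (adjusted p = 0.15 among all probe sets). The median change of the 7 leukocyte genes was -0.04.

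Leukocyte markers were read beside Itgb7. Of 8 general leukocyte markers 7 were at or under the guide, among them Ptprc, the CD45 gene, at 6.25 ± 0.03 (SD, n = 3) in WT and 6.23 ± 0.09 in KO188. Cd53, a leukocyte tetraspanin gene, fell by 0.37 (limma adjusted p = 0.032) within the range under the guide. Coro1a (-0.14) and Laptm5 (-0.15), also under the guide, were not called but had unadjusted limma p of 0.028 and 0.047. The remaining leukocyte markers had unadjusted p above 0.05, and Spi1 changed the other way (0.05). The log2 of the summed level of the 8 was 9.47 to 9.55 in WT and 9.35 to 9.46 in KO188, lower without overlap. Of the 7 lymphocyte markers measured 5 were at or under the guide and 0 was called by limma, also without adjustment; their summed level was 9.03 to 9.05 in WT and 8.89 to 9.04 in KO188. The part of such cells in the Itgb7 result was not tested.

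**Figure D3:**
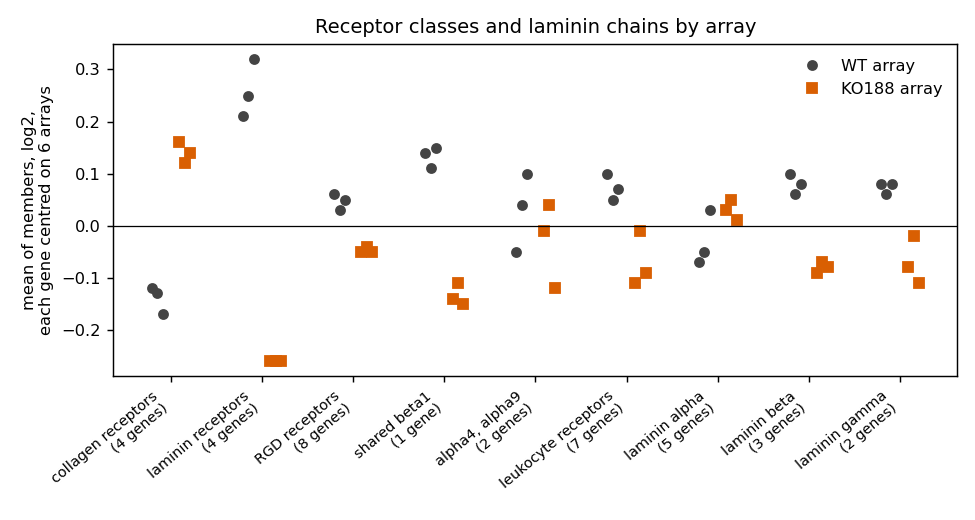
Mean of the members of each receptor class and laminin chain group in every array (log2, each gene centred on its mean over the 6 arrays, y axis); circles are WT arrays and squares KO188 arrays. Collagen receptors lay between -0.17 and -0.12 in WT and between 0.12 and 0.16 in KO188, and laminin receptors between 0.21 and 0.32 in WT and at -0.26 in KO188. In the laminin receptor mean Itga6 (change -1.38) weighs most, beside Itga3 (-0.44), Itga7 (-0.23) and Itgb4 (-0.03, not called).

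The laminin chains gave 2 rises, 3 falls and 5 genes without a call. Lama5, Lamb1 and Lamc1, which encode the alpha5, beta1 and gamma1 chains of 1 trimer known from bone marrow and vessel walls, were all lower in KO188. Lamb1 read 10.54, 10.42 and 10.49 in WT and 10.04, 10.03 and 10.02 in KO188, a fall of 0.45 (SE 0.037, limma adjusted p = 2.0e-04). Lama5 read 8.42, 8.38 and 8.48 in WT and 7.99, 8.13 and 8.02 in KO188, a fall of 0.38 (SE 0.047, adjusted p = 0.0013). Laminins with the alpha5 chain are ligands of alpha3 and alpha6 integrins, whose genes were lower too. The other called alpha chain genes went the other way. Lama3 (0.18), whose chain is also in ligands of alpha3 integrin, and Lama4 (0.32) were higher, as given below. Lamc1, the gamma chain gene shared by most laminins, read 11.30, 11.27 and 11.32 in WT and 11.09, 11.09 and 11.08 in KO188, a fall of 0.21 (SE 0.025, adjusted p = 0.0012).

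Lama4, the gene of the alpha4 chain found in laminins of mesenchymal cells and vessels, went up. It read 7.40, 7.27 and 7.46 in WT and 7.78, 7.66 and 7.66 in KO188. The rise was 0.32 (SE 0.059, adjusted p = 0.0064), and within each array Lama4 minus Lama5 changed by 0.70. Lama3, an epithelial alpha chain gene, read 6.90, 7.01 and 7.11 in WT and 7.19 in each KO188 array. The 3 KO188 values were identical as deposited, and the call (0.18, adjusted p = 0.044) ended under 9 of 13 alternatives, while the change stayed between 0.13 and 0.24 over all 13 (adjusted p = 0.013 to 0.12).

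Lamb2, the beta2 chain gene, was 10.02 ± 0.01 (SD, n = 3) in WT and 10.03 ± 0.01 in KO188, with an interval of the change from -0.04 to 0.07 that does not reach the fall of Lamb1. Within each array Lamb1 minus Lamb2 changed by -0.47. The remaining chain genes were not called: Lama1 (0.10), Lama2 (0.07, under the guide), Lamb3 (-0.04) and Lamc3 (-0.08, called lower in 3 of 15 alternatives). The median change was 0.10 for the 5 alpha chains, -0.04 for the 3 beta chains and -0.14 for the 2 gamma chains. Leaving out 1 array at a time gave 0.06 (without WT replicate 1) to 0.13 for the alpha chains, -0.07 (without KO188 replicate 2) to -0.02 (without KO188 replicate 1) for the beta chains and -0.17 to -0.12 for the gamma chains, and median centring gave 0.05 for the alpha chains.

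Promoters of 4 members are shown, the called collagen receptor genes, which rose, and the laminin chain genes Lama5 and Lamb1, which fell. Sequences run from 250 bases before to 50 after the gene start and come from RefSeq (GRCm38.p6). Capitals mark matches, on either strand, to the GC box (GGGCGG, the letters bound by Sp1), the CCAAT box (CCAAT), the TATA box (TATAAA) and the AP-1 site (TGANTCA), which do not overlap here.
Itga1, chr13:115101915-115102214, minus strand: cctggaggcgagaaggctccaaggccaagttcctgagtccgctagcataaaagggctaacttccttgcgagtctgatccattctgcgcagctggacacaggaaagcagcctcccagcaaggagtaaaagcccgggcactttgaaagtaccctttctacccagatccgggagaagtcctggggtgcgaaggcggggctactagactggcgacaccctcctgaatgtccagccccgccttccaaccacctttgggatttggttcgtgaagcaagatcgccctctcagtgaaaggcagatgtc
Itga11, chr9:62677605-62677904, plus strand: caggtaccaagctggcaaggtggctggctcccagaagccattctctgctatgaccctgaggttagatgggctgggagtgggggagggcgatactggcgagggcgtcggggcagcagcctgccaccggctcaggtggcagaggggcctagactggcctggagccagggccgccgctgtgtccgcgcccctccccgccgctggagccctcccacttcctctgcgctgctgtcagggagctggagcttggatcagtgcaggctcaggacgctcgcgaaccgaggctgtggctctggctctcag
Lama5, chr2:180225810-180226109, minus strand: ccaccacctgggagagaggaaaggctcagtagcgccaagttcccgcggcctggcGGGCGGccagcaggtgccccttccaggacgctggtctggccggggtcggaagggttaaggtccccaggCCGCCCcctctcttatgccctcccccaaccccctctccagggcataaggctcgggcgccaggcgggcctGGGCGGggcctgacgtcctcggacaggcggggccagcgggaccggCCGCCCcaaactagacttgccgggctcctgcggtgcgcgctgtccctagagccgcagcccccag
Lamb1, chr12:31265043-31265342, plus strand: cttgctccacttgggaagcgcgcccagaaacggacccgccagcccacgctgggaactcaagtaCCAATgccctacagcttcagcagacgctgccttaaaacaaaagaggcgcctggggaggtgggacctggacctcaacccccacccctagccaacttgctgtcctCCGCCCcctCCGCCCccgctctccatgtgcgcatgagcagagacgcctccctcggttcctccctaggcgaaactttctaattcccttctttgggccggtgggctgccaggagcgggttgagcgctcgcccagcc
The Lama5 promoter holds 4 GC boxes and that of Lamb1 holds 2 GC boxes and 1 CCAAT box, while neither collagen receptor promoter holds any of the 4 motifs. The 4 promoters shown are a selection. Lama5 has the most GC boxes of any member promoter, and the promoters of Itgb6 and Itgb7, also lower in KO188, hold none. The table holds promoters of 23 of the 36 members. A GC box was present for 6 of the 8 lower members with a promoter, for 0 of the 4 higher ones and for 5 of the 11 that were not called, against 35.7% of all 32851 promoters of the same length. The member counts are of genes, some with several promoters, whereas that share is of promoters. The promoters of members were also richer in G and C, with a median of 58.9% against 52.7% over all promoters. The TATA box is in 13.6% of all promoters, the CCAAT box in 37.4% and the AP-1 site in 7.8%. These counts are small, were noticed with the changes known, and describe letters in these windows only.

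Other components of the basement membrane went both ways, as the laminin chains did. Of 21 listed genes 4 were higher and 4 lower, with a median of -0.04. Of the 21, 18 were above the guide, where 17.9% of all tested genes were higher and 23.1% lower. Most genes of each adhesion list below were above the guide too. Nid1, the gene of a nidogen that links laminin to type IV collagen, fell by 0.56 (limma adjusted p = 1.7e-05). Nid2, a second nidogen gene, went the other way and rose by 0.14 (adjusted p = 0.0051). Hspg2, the perlecan gene, fell by 0.38 (adjusted p = 9.0e-05), with Col4a2 (-0.16) and Col4a1 (-0.12) lower too. Agrn, the gene of the laminin-binding proteoglycan agrin, rose by 1.16 (adjusted p = 8.0e-07), or 2.24-fold, from 8.98 ± 0.04 to 10.15 ± 0.01 (SD, n = 3). Smoc2, a SPARC-related matrix protein gene, rose by 0.89, and Npnt, which encodes the alpha8 ligand nephronectin, rose by 0.25. Of 14 laminin receptors outside the integrin family and their partners 3 rose and 2 fell. Dtna, a dystrobrevin gene, rose by 0.47, Sgcb, a sarcoglycan gene, by 0.33 and the syndecan gene Sdc3 by 0.19, whereas Rpsa (-0.24) and the dystroglycan gene Dag1 (-0.19) fell.

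Of 9 genes of fibrillar and type VI collagens 5 rose and 2 fell, with a median of 0.14. This list leaves out the type IV collagens of basement membranes, which collagen receptors also bind. Of these, counted above, Col4a1 (-0.12) and Col4a2 (-0.16) fell, and Col4a3, Col4a4, Col4a5 and Col4a6 were not called. Col6a2 rose by 0.68, Col6a1 by 0.32 and Col3a1 by 0.43, while Col6a3 (-0.20) and Col5a2 (-0.12) fell. RGD and related ligands gave 4 rises and 4 falls among 16. Edil3, the gene of an RGD protein that binds alphaV integrins, rose by 1.01, or 2.02-fold, and Tgfb3, whose latent form alphaV integrins bind, rose by 0.62, whereas Tgfb1 fell by 0.41 (limma adjusted p = 4.5e-04). Postn, an alphaV ligand gene, rose by 0.47, and Tnc (-0.26) and Tgfbi (-0.21) fell. Fn1, the fibronectin gene, was 13.72 ± 0.03 (SD, n = 3) in WT and 13.63 ± 0.03 in KO188 and was not called (adjusted p = 0.063).

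Of all 125 other adhesion genes tested, 114 were above the receptor guide, and 50.9% of these were called, against 41.1% of all genes above it (17.9% higher and 23.1% lower). Inside the cell, genes of the kinases and relays downstream of integrins were lower where called, in 9 of 14 tested genes with 0 higher and a median of -0.15. The highest of the others, Git1 at 0.07, had an unadjusted limma p of 0.063. Fyn, a Src-family kinase gene, fell by 0.24 (limma adjusted p = 8.6e-04), Rapgef1, an activator of Rap1, fell by 0.29 and Dock1, which activates Rac, fell by 0.29. Ptk2, the focal adhesion kinase gene, was not analysed here. Of 26 adaptor genes that join integrins to actin 7 fell and 3 rose, with a median of -0.02. The crosslinker genes Actn1 (-0.24) and Flna (-0.21) and the parvin gene Parva (-0.17) fell, and the tensin gene Tns2 (0.22), Kank2 (0.15) and Sharpin (0.14) rose. Among 14 surface partners of integrins 2 rose and 6 fell. Mcam, an adhesion receptor gene that binds the laminin alpha4 chain, fell by 1.24 (adjusted p = 1.8e-06), the tetraspanin gene Cd9 fell by 0.33 and Cd44 fell by 0.33, while Cd82 (0.33) and Cd47 (0.27) rose. Of 11 counter-receptors of leukocyte integrins Vcam1, the alpha4 ligand gene, rose by 0.27, F11r rose by 0.13 and Jam2 fell by 0.63.

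**Figure D4:**
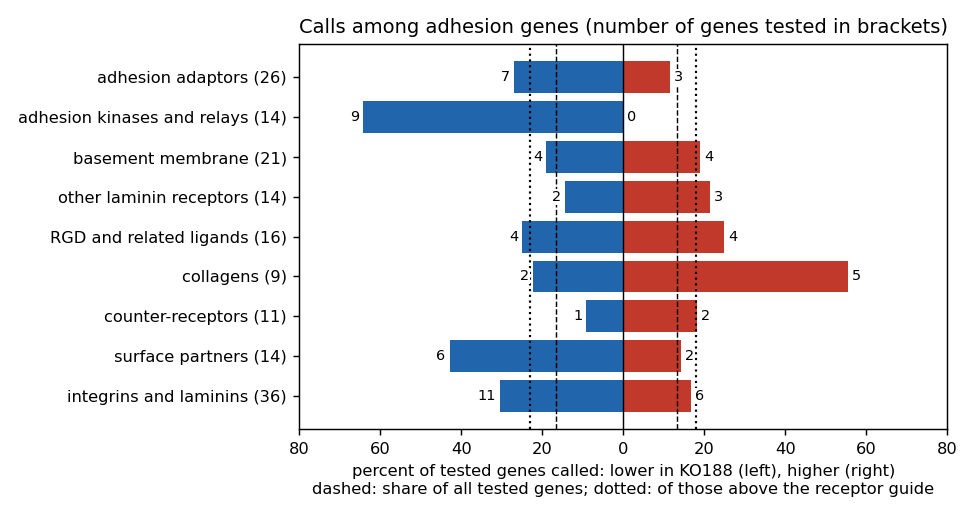
Percent of the tested genes of each adhesion list called lower (left) and higher (right) in KO188, with the number of called genes at each bar and the number tested in brackets; dashed lines mark the shares over all tested genes, 16.5% lower and 13.3% higher, and dotted lines those over genes above the receptor guide, 23.1% lower and 17.9% higher. Kinases and relays have 9 falls and 0 rises, and collagens 5 rises and 2 falls. The type IV collagens are counted with the basement membrane.

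The label of the cells was read against stromal markers, of which 11 of 12 were above the guide and 9 were higher in KO188, namely Pdgfra (0.87), Twist1 (0.47), Col3a1 (0.43), Cxcl12 (0.40), Cdh11 (0.37), Col1a1 (0.20), Pdgfrb (0.15), Col1a2 (0.14) and Prrx1 (0.12). For this and the counts below, 13.3% of all tested genes were higher and 16.5% lower. Among genes above the guide the shares were 17.9% and 23.1%. Of 6 osteoblast markers 4 were at or under the guide (Sp7, Phex, Ibsp and Dmp1). The 6 gave 3 rises, Alpl (2.08), Sp7 (0.36) and Col1a1, and 1 fall, Phex (-0.16). Adipocyte markers gave 2 falls among 7, Pparg (-1.86) and Fabp4 (-0.33). Plin1 (-0.01), Cidec (0.00), Plin4 (0.10) and, under the guide, Adipoq (-0.01) and Lep (0.19) were not called. The summed adipocyte level was 10.84 to 10.89 in WT and 10.22 to 10.32 in KO188. It is taken on the linear scale, where the fall of Pparg (9.74 to 7.88) weighs most. Other cell types that use laminin receptors were also read. Of 8 endothelial markers 5 were at or under the guide, with a summed level of 9.65 to 9.67 in WT and 9.61 to 9.68 in KO188 and 1 call, Kdr (0.24, under the guide). Of 8 epithelial markers 3 were at or under the guide and 0 was called by limma, also without adjustment (10.36 to 10.44 in WT, 10.35 to 10.43 in KO188). Of 4 Schwann cell markers 2 were and 0 was called (8.99 to 9.05 and 8.94 to 9.0), with 1 unadjusted p under 0.05. Muscle markers gave 1 call of 8, Acta1 (-0.23), and their summed level was lower in KO188 without overlap (10.94 to 10.98 in WT, 10.80 to 10.93 in KO188). In that linear sum the fall of Acta1 (9.17 in WT, 8.94 in KO188) weighs most. Of 5 megakaryocyte markers Ppbp (-1.06) was called. Pf4 (-0.03, under the guide), Gp9 (0.06), Itga2b (-0.04) and Treml1 (-0.06) were not. The sum of the 5 was 12.42 to 12.45 in WT and 11.48 to 11.55 in KO188. It is taken on the linear scale and is mostly Ppbp (12.26 in WT, 11.20 in KO188), so it repeats that gene. Macrophage markers, of which 6 of 10 were at or under the guide, gave 1 call, Mpeg1 (1.32), with sums of 10.29 to 10.33 in WT and 10.36 to 10.41 in KO188. Here the rise of Mpeg1 (5.72 in WT, 7.04 in KO188) weighs most. The osteoclast list, which holds Itgb3, gave 1 rise of 8, Ctsk (0.88), with sums of 10.36 to 10.41 and 10.57 to 10.67. The difference of these linear sums is mostly that of Ctsk (8.32 in WT, 9.20 in KO188), and the other genes of the list were not called. Granulocyte markers gave 0 calls of 8 by limma, also without adjustment. The part of any of these cell types in the results was not tested.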

How the data were processed

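Total RNA (6 ug) of 3 WT and 3 KO188 samples was measured on Affymetrix arrays. The deposited table holds 1 value per probe set and array; its log2 scale was read from the values, and per the submitters' processing notes the tools were RMA, Affymetrix Expression Console and Partek. No genome build or tool version is given in these sources. Of 35556 probe sets the platform annotation pairs 21789 with 1 symbol, 1621 with several (not used, among them 3 that name Itgam with Rpl35) and lists no gene for 12146. For 999 genes with several probe sets the one with the highest 6-array mean was used, which gave 19938 genes.

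KO188 was compared with WT by limma 3.58.1 (lmFit, eBayes) in R 4.3.3, with Benjamini-Hochberg adjustment over all genes, a threshold of 0.05 and unadjusted 95% intervals. The code was tested on simulated data. Array medians were 7.43 to 7.50, and arrays correlated at 0.9988 to 0.9993 within groups and 0.9909 to 0.9912 between them. Same-numbered replicates did not deviate together (r = 0.018, 0.010 and -0.028 over genes), so the numbers were not used as pairs. The number of arrays limits the precision. Named genes are every member, up to 3 called genes in each direction with the lowest p of each adhesion list (further called genes were added after their values were seen) and every called cell type marker. The members, lists and pairs were chosen with earlier results of these data known. Scaling, a filter on dim genes, the choice of probe set, the variance model, a replicate block and leaving out each array were tried as alternatives.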

Additional observations from a re-analysis of the deposited data

How the results depend on the processing

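Over 15 alternatives, of which 1 (genes with equal values within a group left out, 14653 genes remaining) was chosen after seeing the data, 14 of the 17 called members kept their call wherever they were tested and 0 turned sign. Itga7, Itgb5 and Lama3 lost it in some, and 6 members without a call (Itga5, Itga9, Itgam, Itgb2, Lamb3 and Lamc3) gained one in some. With genes below the 50th percentile left out, which drops members by construction, 3 members were higher, and the class medians became 0.50 for collagen receptors, -0.91 for laminin receptors, -0.11 for RGD receptors, -0.35 for leukocyte receptors, -0.22 for laminin beta chains and, with the sign turned, -0.38 for laminin alpha chains. Median centring moved them to 0.22 for collagen receptors, -0.38 for laminin receptors, -0.12 for RGD receptors, -0.09 for laminin beta and -0.19 for laminin gamma chains, and quantile normalization gave -0.09 for laminin beta chains; the cause was not tested. With genes of equal values left out the medians were 0.46 for collagen and -0.11 for RGD receptors. Leaving out each array in turn gave -0.36 to -0.29 for laminin receptors and -0.11 to -0.04 for RGD receptors. With the replicate block 5 members were higher and 10 lower, and the calls of Itgb5 (adjusted p = 0.067) and Lama3 (0.057) ended (limma). Signal near the receptor guide limits the sizes of change that can be read for dim members such as Itga8 and Itgb6.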
